A study of Mus musculus with 6 samples.

Results

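Macrophages of the lung tissue that carry complement C1q transcripts were taken by a fixed rule from single-cell RNA libraries of 6 mouse lungs. A barcode was kept if it had at least 500 genes, at least 1000 unique molecular identifiers (UMIs, one per captured transcript) and at most 15% mitochondrial UMIs. It was selected if it held at least 1 UMI of Ptprc (the CD45 gene), at least 3 of C1qa and at least 2 of C1qc, and none of Krt79, Plet1, Cdh5, Cd3e or Cd79a. The rule found 456 cells among 88616 filtered barcodes, of which 32913 had a Ptprc UMI, so the selected cells were 0.515% of the filtered and 1.39% of the Ptprc-positive barcodes. The lungs came from male C57BL/6 mice of 21 months. The 3 mice labelled p16-DTR carried p16-CreERT2 and R26-LSL-DTR, and the 3 control mice carried p16-CreERT2 alone, so every mouse had the CreERT2 driven by the p16 (Cdkn2a) promoter. All 6 received tamoxifen for 5 days, then, 2 weeks later, diphtheria toxin for 5 days, and the lungs were taken after 2 further weeks. Each library came from 1 mouse and mixed 20000 sorted CD45- cells with 9000 CD45+ cells after Liberase digestion, so cell shares are read within the Ptprc-positive barcodes only. The p16-DTR libraries gave 66, 102 and 156 selected cells and the control libraries 46, 41 and 45.

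Interstitial macrophages lie in the lung tissue around vessels, airways and nerves, whereas alveolar macrophages lie in the airspace. They make C1q, the recognition molecule of the classical complement pathway, take up dying cells through receptors such as Mertk, and depend on the growth factor receptor Csf1r. A subset marked by Lyve1, Folr2 and Cd163 is known to sit along vessels, and another with high MHC class II and Cx3cr1 or Ccr2 is known for antigen presentation. R26-LSL-DTR places the diphtheria toxin receptor behind a stop cassette that Cre removes, so that toxin kills cells in which the p16 promoter had driven the recombinase.

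The 3 C1q genes, which encode the A, B and C chains of the molecule, lie next to each other within 18675 bases of chromosome 4 (positions 136880129 to 136898803, minus strand, GRCm38). The sequence before the start of the genes is shown because C1qa and C1qc chose these cells. RefSeq windows were found for 2 of the 3 genes, and only bases before the annotated starts are printed, 5′ to 3′ on the coding strand. Capitals mark GAGGAA or its reverse complement TTCCTC, the core of the motif bound by PU.1, the factor encoded by Spi1 that is needed to form macrophages. The C1qb stretch covers chr4:136886201-136886450 and the C1qc stretch chr4:136893066-136893164, both of GRCm38.p6.
C1qb: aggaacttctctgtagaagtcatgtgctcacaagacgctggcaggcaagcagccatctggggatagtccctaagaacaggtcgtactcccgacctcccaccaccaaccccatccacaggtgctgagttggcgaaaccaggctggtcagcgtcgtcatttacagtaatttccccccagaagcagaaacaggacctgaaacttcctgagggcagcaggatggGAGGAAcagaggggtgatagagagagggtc
C1qc: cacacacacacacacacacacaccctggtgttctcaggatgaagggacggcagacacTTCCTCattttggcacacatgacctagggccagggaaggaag
Each held 1 match, 38 and 37 bases from the GENCODE start of the gene. Of all 32851 windows of 250 bases before a RefSeq start, 23.3% held the motif on either strand, so a match is a description of these letters only.

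The selected cells were deep: the median was 24697, 23730.5 and 24498 UMIs per cell in the p16-DTR libraries and 23531, 18547 and 20983 in the controls. Pairs of libraries shared between 59 and 94 barcode sequences, and no barcode was selected in both libraries of a pair. The highest Scrublet scores of each library were marked as predicted doublets, their number preset at 0.4% per 1000 barcodes. This marked 44 of the 456 cells (9.65%). Over all filtered barcodes it marked from 683 of 12667 in control 2 to 1139 of 16426 in control 1. Among 22 marker lists summed over the selected cells, several stood apart in 1 or 2 libraries. Markers of alveolar type 2 epithelium, the surfactant-making cells, made up 9367 CPM (counts scaled to 1000000 UMIs) in control 3 and 81.1 to 134 in the other 5 libraries. Neutrophil markers made up 5995 CPM in p16-DTR 1 and 4009 in control 1, against 133 to 1018 in the other 4, and natural killer cell markers 80.8 in p16-DTR 3 against 1.14 to 5.58. Smooth muscle or pericyte markers made up 68.9 CPM in p16-DTR 3 against 7.96 to 18.6, and fibroblast markers 317 in p16-DTR 3 and 254 in control 1 against 22.9 to 137.

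The label was checked against markers. All 15 interstitial macrophage markers were found in more than 50% of the selected cells, from 68.4% for Fcgr1 to 100% for the C1q chains, of which the rule itself required C1qa and C1qc. Among the markers that the rule did not use, Csf1r was found in 99.6% of cells and Adgre1 (F4/80) in 96.9%, which classical monocytes also had (89.7% and 81.7%). Mrc1 (the mannose receptor CD206) was found in 91.4% and Mertk in 82.9%, against 7.64% and 6.70% of classical monocytes. Some markers listed for other myeloid cells were also frequent. Cd83 was found in 96.9%, Wdfy4 in 89.5%, Irf8 in 87.1%, Bst2 in 82.2% and Nr4a1 in 76.5%. Cadm1 was found in 75.7%, Mgl2 in 72.8%, Itgax in 67.1%, Batf3 in 64.3% and Ccr2 in 53.7%. Of 11 alveolar macrophage markers, 3 were at 0, of which the rule itself barred Krt79 and Plet1, and the most frequent, Ear2, was in 19.7% of cells. UMIs of Sftpc, a surfactant gene of epithelial cells, were found in 80.0% of the selected cells and also in 71.4% of B cells (median 13864 UMIs per B cell, 23757.5 per selected cell), and Igkc in 54.6%, so UMIs of these genes are read as background. At the edge of the rule, 15 cells just inside had a median of 4 C1qa UMIs, and 33.3% of them had Ms4a7, a macrophage membrane protein gene. The 41 barcodes just outside had a median of 1 C1qa UMI, and 26.8% had Ms4a7. Ms4a7 was found in 83.8% of all selected cells, so both edge sets were unlike most of them in this gene.

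As a description of what the rule picked, the genes with the highest ratio of CPM in selected cells to CPM in other Ptprc-positive barcodes were listed. Ccl12, a monocyte-attracting chemokine, led with 241 CPM against 2.15, followed by the C1q chains (C1qb, 3080 against 33.9). Ms4a7 had 547 CPM against 7.49, Pf4 (platelet factor 4, also made by macrophages) 629 against 9.80, and C3ar1, the receptor for complement C3a, 220 against 5.41. Some of the leading genes came from few cells. Retnla was found in 6.14% of cells and Prg4 in 2.41%, and both were at 0 in at least 1 library, whereas Arhgap22 was found in 90.1%.

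The selected cells were not uniform. Leiden clustering of the 456 cells gave 12 sub-clusters, which are described by number and leading genes, with no test and no comparison of their sizes between groups. In 5 of them, with 144 cells, another cell type led. This was said if at least 1 of the 3 first leading genes, or 3 of the 10, were markers of that type. Immunoglobulin genes were not counted. Sub-cluster 1 (49 cells) was led by Ccl17, Cd209a and Ccl22, and sub-cluster 9 (56 cells) by the monocyte genes Plac8, Vcan and Ly6c2. Sub-cluster 10 (22 cells) was led by the neutrophil genes Retnlg, S100a9 and S100a8, sub-cluster 5 (12 cells, all marked as doublets) by the fibroblast gene Dcn, and sub-cluster 12 (5 cells, all in control 3) by Sftpc. A further group, sub-cluster 8 (16 cells, 13 marked as doublets), was led by Prg4, Alox15 and Saa3. It was set aside because most of its cells were marked as doublets. The remaining 6 sub-clusters held 296 cells and are called the core cells below. This division was made after seeing the data.

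Within the core cells, sub-cluster 4 (61 cells) held the Lyve1, Folr2 and Cd163 programme. Cd163, the haemoglobin scavenger receptor, was at 720 CPM there and 11.6 in the other selected cells, and Folr2, a folate receptor, at 316 against 7.68. The same sub-cluster had 3033 CPM of Mrc1 against 684, 9045 of Apoe (apolipoprotein E) against 3468, and less H2-Aa, an MHC class II chain (6025 against 8714). Sub-cluster 2 (60 cells) was led by Gdf15, Gdf3 and Dnase1l3, with 1096 CPM of Mmp12, the macrophage elastase, against 411. Of its cells, 37 were from p16-DTR 3. Sub-cluster 3 (68 cells) was led by Pcdh7, Plau (urokinase) and the chemokines Ccl3 and Ccl4, and sub-cluster 6 (38 cells) by Dclk1. Sub-cluster 7 (39 cells) had the highest H2-Aa (13863 CPM against 8047) and 11116 CPM of Apoe, and its first 3 leading genes were Igha, Igkc and Jchain, which plasma cells express, found in 2.56%, 53.8% and 15.4% of its cells. It was kept among the core cells. Sub-cluster 11 (30 cells) was led by Gm47507. After each cell was thinned to 5000 UMIs, Cd163 was found in 61.9% of the cells with a Lyve1 UMI (21 cells) and 9.37% of the rest, and Folr2 in 52.4% and 4.92%.

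**Figure D1:**
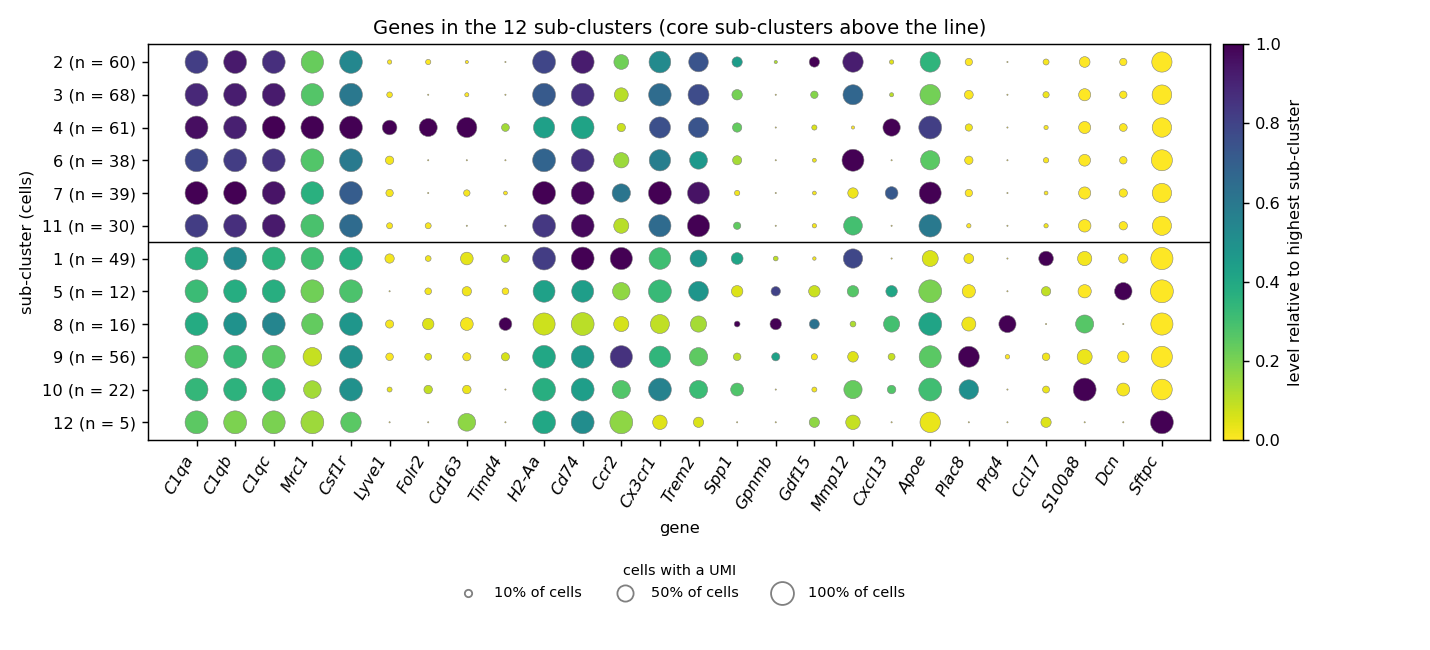
Genes (columns) in the 12 sub-clusters (rows, with their numbers of cells); dot size is the percent of cells with a UMI and colour the level relative to the highest sub-cluster. Lyve1, Folr2 and Cd163 peak in sub-cluster 4, and Sftpc, S100a8, Dcn, Plac8 and Ccl17 peak in sub-clusters below the line, which are not core cells.

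The design compares lungs in which toxin could act on recombined cells with lungs in which it could not. The selected cells made up 1.21%, 1.69% and 2.31% of Ptprc-positive barcodes in the p16-DTR libraries and 0.911%, 0.991% and 0.818% in the controls. The groups did not overlap, and the mean was 1.74% ± 0.554 against 0.907% ± 0.0864 (SD, n = 3 each), 1.92 times as high. The exact two-sided permutation p was 0.1, the smallest that 3 against 3 libraries allow. The 95% Wilson intervals, which cover counting error only, ran from 0.953% to 1.54% in p16-DTR 1 and from 0.731% to 1.34% in control 2, so the lowest p16-DTR and the highest control library were not separated by counting error. When the rule was applied to barcodes thinned to 5000 UMIs the shares were 2.24% and 1.15%. Of core cells the shares were 0.624%, 1.04% and 1.74% against 0.456%, 0.822% and 0.455%, the groups overlapped and the exact permutation p was 0.2.

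**Figure D2:**
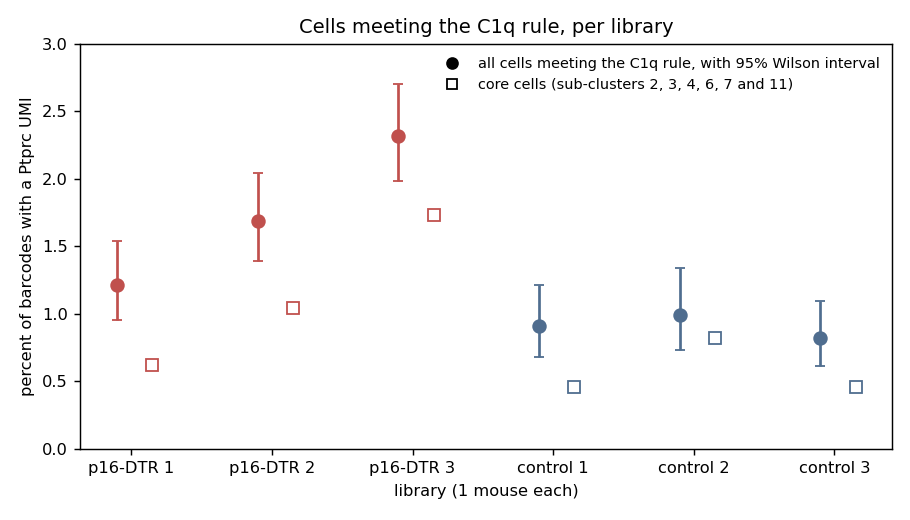
Percent of Ptprc-positive barcodes that met the C1q rule in each library (filled points, with 95% Wilson intervals) and that were core cells (open squares). The filled points of p16-DTR lie between 1.21% and 2.31% and the controls between 0.818% and 0.991%, whereas the open square of control 2 (0.822%) lies above that of p16-DTR 1 (0.624%).

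The denominator itself differed between the groups, despite the fixed mix. Ptprc-positive barcodes were 5452 of 14326, 6037 of 14724 and 6740 of 14965 filtered barcodes in p16-DTR. In control they were 5048 of 16426, 4137 of 12667 and 5499 of 15508, a smaller part than in any p16-DTR library. The cause was not tested. The share also depends on what else the CD45+ side holds. B cells chosen by Cd79a and Ms4a1 made up 12.1% ± 1.15 of Ptprc-positive barcodes in p16-DTR and 17.3% ± 0.971 in control (SD, n = 3 each, exact permutation p = 0.1, adjusted over 4 cell types 0.4), and the part of this difference in the share of selected cells was not tested. Against monocytes, which enter the lung from blood, the count was also higher. There were 21.4, 35.8 and 62.2 selected cells per 100 classical monocytes in p16-DTR and 15.3, 16.8 and 20.4 in control. Per 100 nonclassical monocytes there were 11.6, 18.0 and 25.7 against 9.41, 8.27 and 11.3. Both ratios lacked overlap between the groups (exact permutation p = 0.1, adjusted over 4 ratios 0.1). They used all selected cells, including the monocyte-led sub-cluster 9. With core cells both ratios overlapped: p16-DTR 1 and control 2 had 34 core cells each, beside 309 and 244 classical and 570 and 496 nonclassical monocytes. In each ratio, p16-DTR 3 was the highest library and lay furthest from the controls.

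Expression was compared on UMI counts summed over the selected cells of each library, between 878921 and 4428163 UMIs per library. With edgeR's quasi-likelihood test, 2 of 9638 tested genes passed an adjusted p of 0.05 (0.0208%), of which 1 was higher (0.0104%) and 1 lower (0.0104%) in p16-DTR. At an unadjusted p under 0.05 there were 712 genes (7.39%), 368 higher (3.82%) and 344 lower (3.57%). The 3 libraries of a group did not overlap those of the other in 13.1% of genes, with p16-DTR above in 6.6% and below in 6.48%. The p-values measure the spread between these mice.

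Airn was the gene that rose. It is a long noncoding RNA read antisense to Igf2r, and is known for silencing Igf2r on the paternal chromosome in most tissues. Its level, in CPM scaled by the TMM factors that edgeR uses, was 62.9, 94.7 and 68.9 in p16-DTR and 14.6, 11.8 and 13.6 in control, so every p16-DTR library was above every control. The log2 fold change was 2.48 (SE 0.23, edgeR adjusted p = 0.0351). Airn spans chr17:12741311-12860136 on the plus strand (GRCm38, GENCODE M21), and its start lies in an intron of Igf2r, with 28354 bases of overlap. The 250 bases before its start, chr17:12741061-12741310, are shown because Airn is 1 of the 2 genes called, and the same motif is in capitals.
Airn: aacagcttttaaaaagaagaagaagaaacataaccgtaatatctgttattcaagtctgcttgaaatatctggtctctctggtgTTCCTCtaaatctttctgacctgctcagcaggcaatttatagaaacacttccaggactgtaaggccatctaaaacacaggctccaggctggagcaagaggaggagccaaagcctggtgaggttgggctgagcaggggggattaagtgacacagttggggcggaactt
Whether the counting used strand is not given in the sources used here, so reads of the overlapping genes may not be told apart. Igf2r, the receptor that clears insulin-like growth factor 2, which was looked up after the Airn result was seen, had 11.5, 12.7 and 17.7 CPM against 5.37, 2.36 and 2.73 (log2 fold change 1.94, edgeR adjusted p = 0.331).

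Few cells carried the Airn signal. Airn was found in 22.7%, 16.7% and 19.9% of the selected cells of the p16-DTR libraries and in 23.9%, 9.76% and 17.8% of those of the controls, so the share of cells with a UMI overlapped between the groups. In p16-DTR 2, a single cell held 113 of the 275 Airn UMIs (41.1%). By sub-cluster, Airn was at 320 CPM in the fibroblast-led sub-cluster 5 and 193 in sub-cluster 8, against 93.7 in sub-cluster 4 and 14.7 in sub-cluster 3. Without predicted doublets the log2 fold change was 2.61 (edgeR adjusted p = 0.238), and among core cells 1.87 (adjusted p = 0.657). Of the 6 fits that left out 1 library, Airn passed only without control 1 (adjusted p = 0.0452), and without any other library its adjusted p lay between 0.0754 and 0.164.

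Etv3, which encodes an ETS-family transcriptional repressor, was the gene that fell. Its level was 126, 129 and 113 CPM in p16-DTR and 269, 256 and 295 in control, with no overlap and little spread within a group. The log2 fold change was −1.16 (SE 0.12, edgeR adjusted p = 0.0452). It lies at chr3:87525407-87540156 on the plus strand. Etv3 was found in 67.9% to 77.8% of cells in all 6 libraries. In control 2, 1 cell held 33.6% of the Etv3 UMIs, and in the other libraries the highest cell held at most 19.1%. The highest sub-cluster for Etv3 was 1, at 499 CPM, against 157 in sub-cluster 2 and 116 in sub-cluster 3. The summed level of the 8 type 2 conventional dendritic cell markers was 699, 735 and 624 CPM in p16-DTR and 1548, 1201 and 1254 in control. The most abundant of the 8, Mgl2 and Itgax, were also found in 77.4% and 65.2% of core cells, and Mgl2 is itself among the lower genes given below, so the sum is not particular to dendritic cells. Their part in the Etv3 difference was not tested. Among core cells, which leave out sub-cluster 1, the log2 fold change was −0.24 (edgeR adjusted p = 0.800). Of the fits that left out 1 library, Etv3 passed only without control 1 (adjusted p = 0.0452), and the highest adjusted p, 0.331, came without p16-DTR 3.

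Among core cells alone, 1 of 7131 tested genes passed (0.014%), and it was neither of these. At an unadjusted p under 0.05 there were 6.87% of genes, 3.55% higher and 3.32% lower. Cndp2, which encodes a cytosolic dipeptidase, fell: its level was 50.3, 32.2 and 33.4 CPM in p16-DTR and 158, 171 and 130 in control. No library overlapped the other group, and the log2 fold change was −2.05 (SE 0.22, edgeR adjusted p = 0.00806). It passed in 5 of the 6 core fits that left out 1 library, and without p16-DTR 3 its adjusted p was 0.165. Over all selected cells Cndp2 had 55.9, 21.7 and 32.4 CPM against 113, 144 and 115 (log2 fold change −1.77, edgeR adjusted p = 0.279), which did not pass by edgeR. There it passed by DESeq2 (adjusted p = 0.00031) and with no filter on low counts (edgeR adjusted p = 0.00334). With equal numbers of cells it did not (edgeR adjusted p = 0.469). The difference was spread over many cells. A Cndp2 UMI was found in 54.5%, 33.3% and 43.6% of the selected cells in p16-DTR and in 78.3%, 80.5% and 77.8% in control, and no cell held more than 14 UMIs.

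Cndp2 had the same direction in other cells of the same libraries, which share mice and batches with the selected cells. Classical monocytes had 35.6 ± 24.4 CPM in p16-DTR and 99.1 ± 9.70 in control, and alveolar macrophages 66.3 ± 19.7 against 132 ± 8.38. B cells had 13.2 ± 4.97 against 27.8 ± 4.02 (SD, n = 3 in each group). The difference of the Cndp2 effect between the selected cells and classical monocytes was −0.22 on the log2 scale (SE 0.19, edgeR adjusted p = 0.877).

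**Figure D3:**
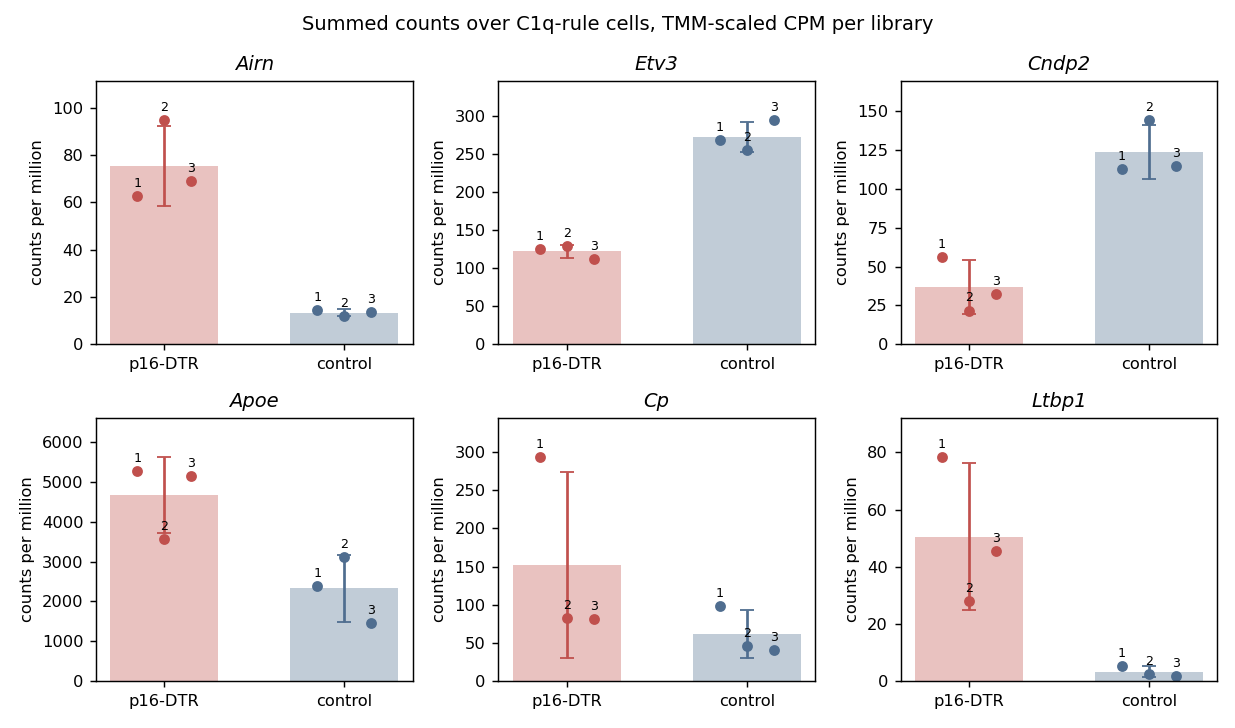
TMM-scaled CPM of 6 genes in the selected cells, with each library as a numbered point, bars at the mean and error bars of 1 SD (n = 3). Airn, Etv3 and Cndp2 do not overlap between the groups, whereas the Cp bar of p16-DTR rests on library 1 (294 CPM against 82.7 and 80.7).

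**Figure D4:**
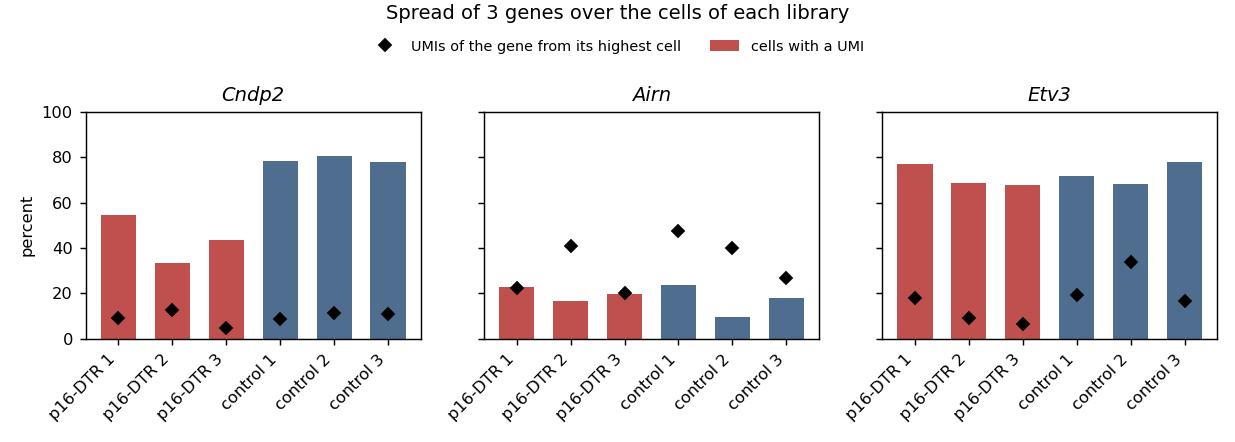
Percent of selected cells with a UMI (bars, red for p16-DTR and blue for control) and percent of the gene's UMIs that came from its highest cell (diamonds) in each library. Bars of Cndp2 separate the groups (33.3% to 54.5% against 77.8% to 80.5%), whereas bars of Airn and Etv3 overlap.

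Beyond the genes called, the 9 higher and 9 lower genes with the smallest p at a mean of at least 20 CPM are given as values. On the higher side, Fmo2 had a log2 fold change of 2.01, Ltbp1 (which binds latent TGF-beta) 3.88, Inmt 1.26, Serping1 (the C1 inhibitor) 1.95 and Cald1 2.05. Of these 5, which fibroblasts are known to express strongly, 3 could still be tested without the predicted doublets, and their values were then 0.12 (Fmo2), −0.13 (Inmt) and 0.23 (Serping1). Sub-cluster 5 had 1449 CPM of Fmo2, against 21.0 in sub-cluster 4, and all 12 cells of sub-cluster 5 were marked as doublets. The part of these cells in the values of the 5 genes was not tested separately from the other predicted doublets. The other 4 had, with and then without doublets, 0.77 and 0.70 (Rgs2, a regulator of G protein signalling), 0.87 and 0.94 (Mylip, which degrades the LDL receptor), 1.27 and 1.05 (Zbtb16) and 1.25 and 0.82 (Pam). None passed (edgeR adjusted p from 0.109 to 0.331 among the 9).

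On the lower side, Nfkb1, which encodes the p105 and p50 subunit of NF-kB, had 542, 537 and 490 CPM against 876, 941 and 1108 (log2 fold change −0.90, edgeR adjusted p = 0.110). Nfkbie, an inhibitor of NF-kB, had 46.9, 48.6 and 44.3 CPM against 90.6, 93.4 and 95.5. The log2 fold change of Malt1, an activator of NF-kB, was −1.33, and that of Mgl2, a galactose-binding lectin of macrophages and dendritic cells, −1.38. In all 4 genes every p16-DTR library was below every control, as in 6.48% of all tested genes. These 4 were picked by small p in the same comparison, so their lack of overlap is no separate result. Adam23 (−1.42), Dcbld2 (−1.05), Pfkp, a glycolytic enzyme (−0.83), and Vdr, the vitamin D receptor (−1.64), were the others beside Cndp2. None passed by edgeR (adjusted p from 0.109 to 0.331). As with Etv3, Nfkb1 and Malt1 were highest in sub-cluster 1 (1377 and 1066 CPM), and in core cells Nfkb1 had −0.21 and Malt1 −0.73.

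The targets of the model gave little signal in these cells. Cdkn2a, which encodes p16, had 5.49, 9.65 and 7.60 CPM in p16-DTR and 1.54, 1.18 and 8.19 in control. The groups overlapped in CPM, and all 9 Cdkn2a UMIs of control 3 came from 1 cell (log2 fold change 1.04, edgeR adjusted p = 0.794). A Cdkn2a UMI was found in 13.6%, 17.6% and 10.3% of the cells in p16-DTR and in 4.35%, 2.44% and 2.22% in control, without overlap (exact permutation p = 0.1). After thinning to 5000 UMIs the shares were 3.03%, 3.06% and 1.97% against 0% in each control library, again without overlap (exact permutation p = 0.1, adjusted over 14 genes 0.70), in 8 cells. The groups overlapped when thinned to 3000 UMIs (0%, 2.97% and 0.658% against 0%) and among thinned core cells (0%, 3.23% and 2.65% against 0%), with an exact permutation p of 0.4 in both. At that depth 0 of the 132 control cells, pooled over the 3 mice, allows up to 2.27% of cells with a UMI, which covers counting error only. Without thinning the control libraries had 2, 1 and 1 such cells. B cells had 6.33% in p16-DTR and 0.171% in control when thinned, and 17.0% and 0.803% unthinned, so they differed between the groups too and are no empty reference. Whether the UMIs in the selected cells were their own was not tested. The matrices hold an entry named tdTomato, which had 1 UMI in all 456 cells. Cdkn1a (p21) had a log2 fold change of −0.38 (adjusted p = 0.799), and Hbegf, the mouse relative of the toxin receptor, −1.56 (adjusted p = 0.638).

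For 14 subset and state genes, the share of cells with a UMI was compared after thinning to 5000 UMIs, which kept 316 p16-DTR and 132 control cells and left out 8, all of p16-DTR. No gene could pass, because the smallest exact permutation p that 3 against 3 libraries allow, 0.1, lies above the threshold for adjusted p. The adjusted p was 0.70 or above, and these tests cannot decide whether a share differed, so the shares are given as values. Lyve1 was found in 3.93% ± 1.91 and 6.94% ± 4.15 of cells, Folr2 in 6.85% ± 3.12 and 10.0% ± 4.14, and Cd163 in 9.48% ± 4.19 and 18.3% ± 4.72 (p16-DTR first, SD, n = 3), with overlap in all 3. In thinned B cells, which should lack these genes, Lyve1 was in 1.67% and 1.21% of cells, Folr2 in 0.142% and 0%, and Cd163 in 0.0926% and 0.0395%. Without thinning, Cd163 was in 17.3% and 27.4% of the selected cells without overlap (exact permutation p = 0.1), and in thinned core cells it was in 17.0% and 18.5%, with overlap. The core cells and the depth of 3000 UMIs were thinned in random draws of their own, so a change from the values over all selected cells also holds the difference between draws. Trem2, a lipid-sensing receptor, was found in 47.3% ± 0.619 against 38.1% ± 5.65 without overlap (exact permutation p = 0.1), but its groups overlapped without thinning, when thinned to 3000 UMIs (31.7% and 30.1%) and among core cells (55.3% and 55.0%). Spp1 (osteopontin) was in 7.20% and 3.76% of cells, Mki67, a marker of dividing cells, in 5.22% and 3.67%, and Gpnmb in 4 of 448 cells, all with overlapping groups. Without thinning, Gpnmb was in 7.58%, 2.94% and 4.49% against 0%, 0% and 2.22% without overlap (exact permutation p = 0.1), in 16 cells. In thinned B cells Mki67 was in 2.73% and 1.96%. Among core cells Mki67 was in 2.70% and 6.19% without overlap (exact permutation p = 0.1), in 11 cells, and the p16-DTR value was no higher than that of B cells. Cx3cr1 was in 63.5% and 69.9% of all selected cells with overlap, and in 69.8% and 80.9% of core cells without (exact permutation p = 0.1).

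Gene lists of macrophage functions were examined in the same fit. They held 295 genes, of which 267 were tested and 0 passed by edgeR. At an unadjusted p under 0.05 there were 35 (13.1%, against 7.39% of all tested genes), 14 higher and 21 lower. The lists were chosen with earlier results of these data known, so this comparison of shares is not independent of the data. The groups did not overlap in 38 (14.2%, against 13.1% of all). The medians of lists were read beside the median of all tested genes, −0.0041 on the log2 scale (−0.0085 among core cells).

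In the list of MHC class II and related genes, 11 of 13 tested genes had a negative value, with a median of −0.25, and −0.015 among core cells. The summed type 2 conventional dendritic cell markers given beside Etv3, mostly Mgl2 and Itgax, were lower in every p16-DTR library, and sub-cluster 1 had 11408 CPM of H2-Aa against 7937 in the other cells. Their part in the list's median was not tested. Cd74, the MHC class II invariant chain, had 17342, 15447 and 17492 CPM against 17831, 22417 and 21029 (log2 fold change −0.29, edgeR adjusted p = 0.645). The fractalkine receptor Cx3cr1 had 283, 294 and 269 against 425, 503 and 308 (−0.55, adjusted p = 0.547), and −0.53 among core cells. In the Lyve1 programme, 13 of 18 were negative, with a median of −0.26, but 0.017 among core cells. Its genes with the smallest p, Cbr2 (−0.99) and Ccl24 (0.94), overlapped between the groups, and both changed sign among core cells. Mrc1 had 918 ± 226 against 938 ± 210 CPM (SD, n = 3 each).

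In the list of inflammatory cytokines and NF-kB feedback genes, 15 of 20 tested genes were negative and the median was −0.24 (−0.047 among core cells). Ptgs2, the inducible prostaglandin synthase, had 84.4, 68.2 and 62.2 CPM against 111, 132 and 194 (log2 fold change −1.03, edgeR adjusted p = 0.357). The chemokine list had 13 of 20 negative and a median of −0.15 (−0.27 among core cells). Ccl2, which draws monocytes, had 216, 262 and 242 CPM against 586, 568 and 304 (−1.02, adjusted p = 0.402). Ccl22 (−2.20) was led by control 2 and control 3, at 78.0 and 55.5 CPM. Growth factors made by macrophages had a median of −0.16 over 19 genes (−0.30 among core cells), with Hgf, the hepatocyte growth factor, at 0.50 beside Hbegf at −1.56.

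In the opposite direction, the Trem2 lipid-associated programme had 11 of 16 positive values and a median of 0.13 (0.055 among core cells). Apoe had 5286, 3573 and 5152 CPM in p16-DTR against 2394, 3124 and 1450, without overlap (log2 fold change 1.01, edgeR adjusted p = 0.467). DESeq2 gave Apoe an adjusted p of 0.0414, and edgeR with no filter on low counts 0.0299. With equal numbers of cells the edgeR adjusted p of Apoe was 0.598. Among core cells its value was 1.27 (adjusted p = 0.282). Ctsd, the lysosomal protease cathepsin D, had 254, 232 and 241 against 145, 180 and 145 (0.63, adjusted p = 0.331). The interferon response list had 11 of 18 positive and a median of 0.27, and 0.35 over the 7 that could be tested among core cells. Its members went both ways: Ifi27l2a had 0.86 (adjusted p = 0.562), led by 562 and 513 CPM in p16-DTR 1 and 2, whereas Gbp2 had −1.20. The Ifi27l2a value changed sign without members with 2 markers of another lineage, which left 7 to 30 cells per library.

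The other lists had medians between −0.13 and 0.047 over all selected cells. Complement and its regulators had 0.015 over 14 tested genes (0.13 among core cells), with Cd46, a complement regulator, at 0.64. These 14 include C1qa and C1qc, by which the cells were selected. Receptors for clearance of dying cells had −0.018 over 20, with the scavenger receptors Msr1 at 0.56 and Colec12 at 1.06, and Mertk at 460 ± 117 against 368 ± 151 CPM (SD, n = 3 each). Lysosomal genes had −0.0029 over 25 (Cd68 at −0.26), and iron and heme genes 0.011 over 15 (0.18 among core cells, Slc11a2 at −0.48). Transcription factors had 0.047 over 28, with the orphan nuclear receptors Nr4a3 at −1.08 and Nr4a2 at −0.61, and growth factor and pattern receptors 0.046 over 27, with the inhibitory lectin Clec12a at −0.49. Genes of senescence and cell cycle arrest had 0.0085 over 18, with Gadd45b at −0.99 and Ccnd1 (cyclin D1) at −0.70. Only 4 of 12 proliferation genes could be tested, at a median of −0.13 (−0.40 over the 2 tested among core cells), with Pcna at −0.17 and Mcm5 at −0.35. Genes induced by tissue dissociation had −0.051 over 20, with Socs3 at −0.59 and Ier2 at −0.55. None of these genes passed.

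**Figure D5:**
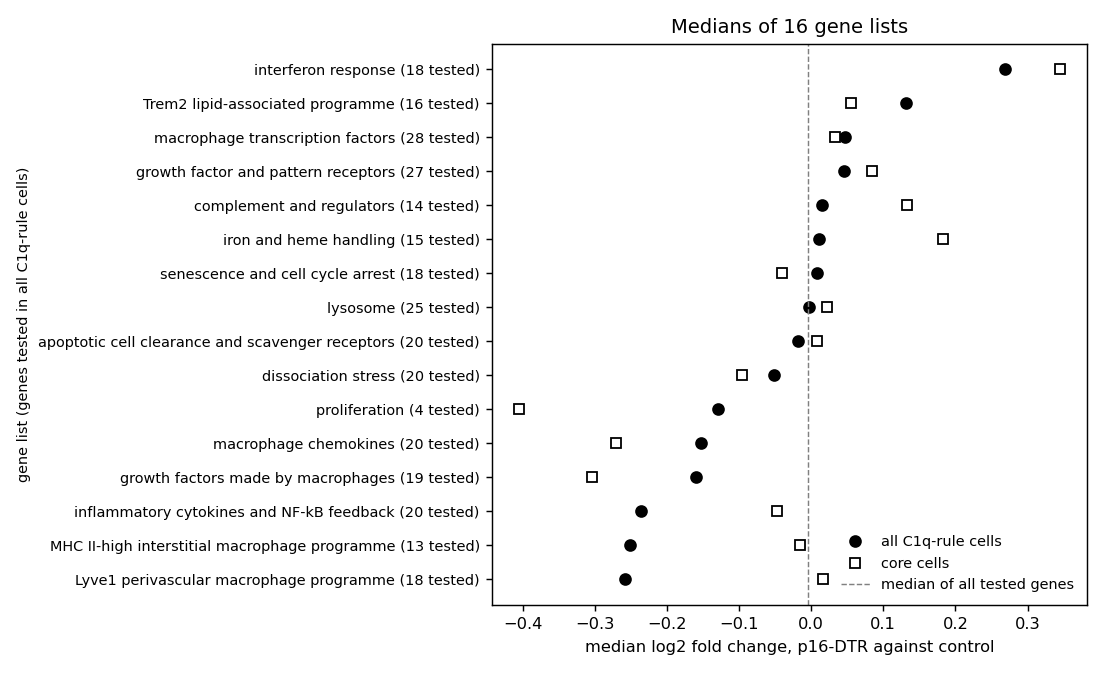
Median log2 fold change of 16 gene lists (rows) over all selected cells (filled points) and core cells (open squares), with the median of all tested genes as a dashed line. The interferon list lies highest at 0.27 and the Lyve1 programme lowest at −0.26 among the filled points, and the open square of the latter is at 0.017.

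Whether the selected cells differed from other myeloid cells was tested by the difference of the p16-DTR effect itself, with the library as a block. Against 1611 classical monocytes, 3 of 12493 genes passed (0.024%), with 7.02% at an unadjusted p under 0.05, and against 107 alveolar macrophages 0 of 9335 passed (0%), with 378 (4.05%) at an unadjusted p under 0.05. Here CPM values are not TMM-scaled. Cp, which encodes the ferroxidase ceruloplasmin, had 287, 83.7 and 81.5 CPM in the selected cells of p16-DTR and 98.1, 44.4 and 39.6 in those of control. In monocytes it had 118, 21.4 and 26.6 against 126, 68.8 and 57.2. The difference was 2.02 on the log2 scale (SE 0.20, edgeR adjusted p = 0.0306), and 1.90 with core cells (adjusted p = 0.0402). In both cell types, p16-DTR 1 and control 1 had the highest Cp of their groups, and 1 cell held 64.1% of the Cp UMIs of control 1. By sub-cluster, Cp was at 918 CPM in sub-cluster 5, 360 in sub-cluster 4 and 324 in the neutrophil-led sub-cluster 10. In the other sub-clusters it was at most 41.8. Summed neutrophil markers were also highest in p16-DTR 1 and control 1, and their part in the Cp values was not tested. Within the selected cells alone Cp had a log2 fold change of 1.26 (adjusted p = 0.687), and 0.39 without p16-DTR 1.

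For Airn the difference from monocytes was 3.17 (SE 0.34, edgeR adjusted p = 0.0306). Monocytes had 17.5, 32.6 and 40.1 CPM in p16-DTR and 41.4, 46.3 and 59.8 in control, which ran the other way. On their own they did not pass for Airn (log2 fold change −0.68, edgeR adjusted p = 0.520). With core cells the difference was 2.35 (adjusted p = 0.588). For Ltbp1 the difference was 3.94 (SE 0.42, adjusted p = 0.0306), but 0.66 with core cells (adjusted p = 0.934). Of the Ltbp1 UMIs of the p16-DTR libraries, 95.1% to 99.4% lay outside the core cells, at 452 CPM in sub-cluster 5 and 285 in sub-cluster 8. When 1 library was left out, the difference lay between 1.89 and 2.20 for Cp, 2.98 and 3.50 for Airn, and 3.49 and 4.83 for Ltbp1. Cp and Ltbp1 passed in 1 and Airn in 2 of these 6 fits, with adjusted p up to 0.150 for Cp and Ltbp1 and 0.241 for Airn.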

How the data were processed

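The authors deposited 1 matrix of raw UMI counts per gene and barcode for each of 6 libraries. Per the submitters' processing notes, Cell Ranger 8.0.1 and mm10 were used, and the libraries were made with a 10x GEM-X 3' kit, per the labels' protocols. Whether counting used strand is not given in the sources used here. The members and lists were chosen with earlier results of these data known. From the deposited counts, barcodes were filtered and selected as described, clustered with scanpy 1.11.5 (2000 variable genes, 30 principal components, Leiden resolution 1), and summed per library. Sums were compared with edgeR 4.0.16 in R 4.3.3 (filterByExpr, TMM, quasi-likelihood test, Benjamini-Hochberg, threshold 0.05), with group as the only term, after the code was tested on simulated data. Single values were compared with exact two-sided permutation tests. Genes named are those called, the 10 higher and 10 lower with the smallest p at a mean of at least 20 CPM, Cdkn2a, Cdkn1a, Hbegf and tdTomato, and in each list the 2 most abundant and the 2 with the smallest p. Comparison cells were chosen by UMIs of Chil3 with Krt79 or Plet1 (alveolar macrophages), Ly6c2 and Ccr2 (classical monocytes), Ace and Cx3cr1 (nonclassical monocytes) or Cd79a and Ms4a1 (B cells). Doublets were marked by Scrublet score at a preset rate and kept, and left out as an alternative. Gene positions are from GENCODE M21, which 30934 of 31054 features matched. Total UMIs per library ran from 254200305 to 344421685. Alternatives were RLE factors, library size alone, DESeq2 1.42.0, no filter, a replicate block, each library left out, stricter or narrower selections, equal numbers of cells, and core cells, the last chosen after seeing the data.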

Additional observations from a re-analysis of the deposited data

Results flagged for a closer look

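The effect of p16-DTR differed between the selected cells and classical monocytes of the same libraries for 3 genes, by edgeR's test of the difference with the library as a block. For Cp the difference was 2.02 on the log2 scale (adjusted p = 0.0306), and 2 of the libraries, p16-DTR 1 and control 1, had the highest Cp in both cell types. For Airn the difference was 3.17 (edgeR adjusted p = 0.0306), and 2.35 with core cells (adjusted p = 0.588). Monocytes had less Airn in every p16-DTR library than in any control. On their own they did not pass for Airn (log2 fold change −0.68, edgeR adjusted p = 0.520). For Ltbp1 the difference was 3.94 (edgeR adjusted p = 0.0306), with few UMIs in the control libraries (7, 2 and 2). With core cells it was 0.66 (adjusted p = 0.934), and 95.1% to 99.4% of the UMIs of the p16-DTR libraries lay outside them.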

How the results depend on the processing

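The count of genes called over the selected cells, 2 by edgeR, was 1 with library size alone, 55 with DESeq2, 77 with no filter on low counts, 5 without members with 2 markers of another lineage (2698 genes tested, 7 to 30 cells per library, since 254 cells had 2 B cell markers) and 1 in core cells. By edgeR it was 0 without predicted doublets (577 at an unadjusted p under 0.05) and 0 with equal numbers of cells per library (646). On all selected cells it was 2 by edgeR (712). The log2 fold changes were then 2.61 and 2.90 for Airn and −1.08 and −1.31 for Etv3. Leaving out 1 library gave 0 to 8 calls: 0 without any 1 of the p16-DTR libraries or control 2, 8 without control 1 and 1 without control 3. The replicate block gave 9 calls, of which 1 was shared with the 2 of the unblocked fit. Same-numbered libraries correlated at 0.2887, 0.1035 and 0.0401 in their deviations from the group means. The other pairs of a p16-DTR and a control library lay between −0.2272 and 0.1785. Whether same-numbered libraries share anything beyond the number was not tested. Calls against classical monocytes, 3 by edgeR, were 5 with RLE factors and 0 to 19 when 1 library was left out (19 without control 1, 1 without p16-DTR 3, 0 otherwise). Of 776 alternative values of named genes, 698 kept direction and side of the threshold, 19 no longer passed, 52 newly passed and 7 changed sign. Those were Inmt (−0.13) without predicted doublets, Adam23 (0.35), Cdkn1a (0.050) and Ifi27l2a (−0.58) without members with 2 markers of another lineage, Cbr2 (0.017) and Ccl24 (−0.028) in core cells, and Pcna, which lay between −0.35 (without control replicate 2) and 0.046 (without control replicate 3). The causes were not tested. The difference in share lay between 0.543 and 1.10 percentage points when 1 library was left out. With 41 to 156 cells per library, rare subsets rest on few cells.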
